A study of Mus musculus with 20 samples.

Results

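The proteasome is the cell's main machine for degrading ubiquitin-tagged proteins, and its subunits are encoded by the Psm genes. The transcripts described here were the protein-coding Psm genes of the constitutive proteasome, chosen by symbol (Psma, Psmb, Psmc, Psmd, Psme, Psmf or Psmg followed by a digit, leaving out Psmb8, Psmb9, Psmb10 and pseudogenes) and by at least 10 counts in at least 10 of 20 libraries. Of 55416 genes in the count table, 47 protein-coding genes matched the symbol and 45 passed the count minimum. Psma8, a testis form of a core alpha subunit, and Psmb11, the thymus form of a core beta subunit, did not reach it, whose highest counts were 9 and 1. Just inside it lay Psmc3ip with 10 or more counts in 15 libraries and Psme2b with 10 or more in 19. Psmc3ip encodes a cofactor of meiotic recombination and no proteasome protein, so 44 proteasome genes remained, 7 core alpha, 7 core beta, 6 ATPase and 11 non-ATPase subunits of the 19S regulatory particle, 5 activators, and 8 assembly chaperones or inhibitors.

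The muscles were quadriceps of male wild-type C57BL/6J mice, 26 to 28 months old, taken 3 h after 1 intramuscular injection in mice fasted for 4 h. Control muscles (n = 10) had received 50 µl of 0.9% saline, and secretome-treated muscles (n = 10) the same volume of a stem cell secretome, the material that cultured stem cells release into their medium. Both groups thus shared the needle, the fast and the age, and no uninjected or young muscle was among these libraries. Total RNA of a piece of each muscle, with all its cell types, was sequenced. Fewer cells of a type and less RNA per cell therefore cannot be told apart.

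The core particle is a barrel in which alpha rings gate the entry and beta rings hold the proteolytic sites, carried by Psmb5 (chymotrypsin-like), Psmb6 (caspase-like) and Psmb7 (trypsin-like). The 19S particle binds ubiquitinated proteins, removes the ubiquitin and unfolds them with its ring of Psmc ATPases, while the activators PA28 (Psme1, Psme2, Psme3) and PA200 (Psme4) open the gate without it. In muscle this system degrades myofibrillar proteins, and its subunits are known to be induced together in many forms of atrophy. Immune signals replace the 3 proteolytic subunits by Psmb8, Psmb9 and Psmb10, which form the immunoproteasome.

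Between 13286983 and 22987237 reads per library were counted on genes. Libraries 1 to 10 were controls and 11 to 20 were secretome-treated, and the share of counts on titin (Ttn) was 7.02% to 11% in libraries 1 to 5, 16.4% to 21.1% in libraries 6 to 15 and 14.2% to 14.7% in libraries 16 to 20. These ranges were read from the data and are named as no batch in the labels. Libraries 6 to 15 covered both treatments with 5 muscles each, and outside them range and treatment cannot be told apart, and values within libraries 6 to 15 are given for the members described in detail. The 7 muscle fibre markers were abundant in every library, with summed levels of 59827 to 122308 CPM (counts scaled to the library size, with TMM factors).

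Proteasome transcripts were present at very unequal levels. Set per kilobase (kb) of exon and averaged over 20 muscles, Psmb5 was highest with 63.3 ± 24 CPM per kb (SD), followed by the 19S subunits Psmd8 (58.9 ± 11) and Psmd2 (55.9 ± 13), the alpha subunit Psma6 (56.4 ± 9.1), the activator Psme4 (55.5 ± 13) and the ATPase Psmc3 (55.2 ± 14). These 6 did not differ beyond their spread. The lowest core subunits were Psma2, with 11.4 ± 2.1 CPM per kb, and Psmb1, with 12.4 ± 1.6. In the 19S particle, the lowest non-ATPase subunit was Psmd14, the deubiquitinase that cuts ubiquitin chains off the substrate, with 12.9 ± 2.5, and the lowest ATPase was Psmc2, with 16.8 ± 3.4.

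The activators spanned the widest range of levels among the role groups. Psme3, the nuclear PA28 gamma subunit, lay at 16.6 ± 1.3 CPM per kb, and the 2 interferon-inducible PA28 subunits Psme1 and Psme2 lay at 7.77 ± 2.0 and 7.84 ± 2.5. Psme2b, a copy of Psme2 that is nearly identical to it, lay at 1.49 ± 0.64, and since reads can be shared between such copies, the levels of both are uncertain. The assembly chaperones and inhibitors were all lower than the core and 19S subunits, from 1.00 ± 0.32 CPM per kb for Psmg3 to 5.52 ± 0.83 for Psmg2. The 3 immunoproteasome subunits were at similarly low levels, 1.08 ± 0.81 for Psmb8, 0.576 ± 0.37 for Psmb9 and 3.99 ± 2.3 for Psmb10. These levels depend on the exon length taken as the divisor. Per kb of the longest transcript, Psmb5 was not the highest. Psmd8 came to 90.8, Psmb6 to 84.9, Psmc3 to 79.2, Psmd2 to 75.3, Psme4 to 71.7 and Psma6 to 66.8, all above Psmb5 with 63.3.

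**Figure D1:**
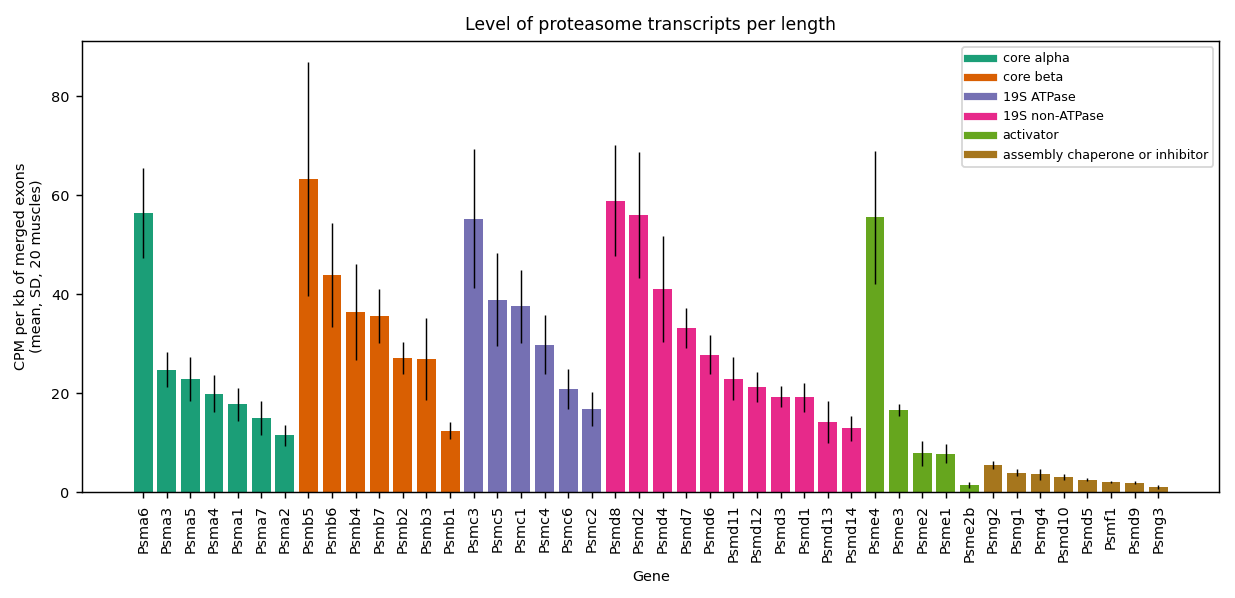
Level of each proteasome transcript per length, in CPM per kb of merged exons; bars give the mean and lines the SD over 20 muscles, coloured by role and sorted within each role. Psmb5, Psmd8, Psma6, Psmd2, Psme4 and Psmc3 stand between 55.2 and 63.3, and the 8 assembly chaperones and inhibitors at 5.52 or below.

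Secretome-treated and control muscles were compared gene by gene to ask whether the injection shifted the proteasome within 3 h. No member passed a 5% false discovery rate in edgeR's quasi-likelihood test over 14471 genes (0 of 44), where 0.00691% of all genes tested passed. The same count was 0 in DESeq2, where 1.25% of 17310 genes passed. With voom of limma it was also 0, for which no share of all genes is given. At an unadjusted p under 0.05 there were 6 of 44 members (13.6%), beside 15.7% of all genes. Of the 6, 4 were higher (6.52% of all genes) and 2 lower (9.21% of all genes). DESeq2 gave 7 at that level, beside 16.7% of the same 14471 genes, and voom gave 6, beside 12.4%. The median log2 fold change of the 44 members was -0.04, with 18 higher and 26 lower. The median of all genes was -0.03, and 44.1% of them were higher. The sign of the members' median turned with the fit. It was 0.03 with voom (26 higher, 18 lower), where 47.7% of all genes were higher, and 0.05 with offsets for GC content and length (28 higher, 16 lower), where 52.7% of all genes were. Psmc3ip, set apart above, had a log2 fold change of -0.21 ± 0.271 (SE, adjusted p = 0.734).

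Within libraries 6 to 15, no member passed (0 of 44, beside 0% of 14469 genes), and 4 members had an unadjusted p under 0.05 (9.09%, beside 9.95% of all genes). Of these, 3 were higher (5.02% of all genes) and 1 lower (4.92%). The median log2 fold change of the members was -0.04, with 19 higher and 25 lower. That of all genes was -0.01, and 47.9% of them were higher.

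**Figure D2:**
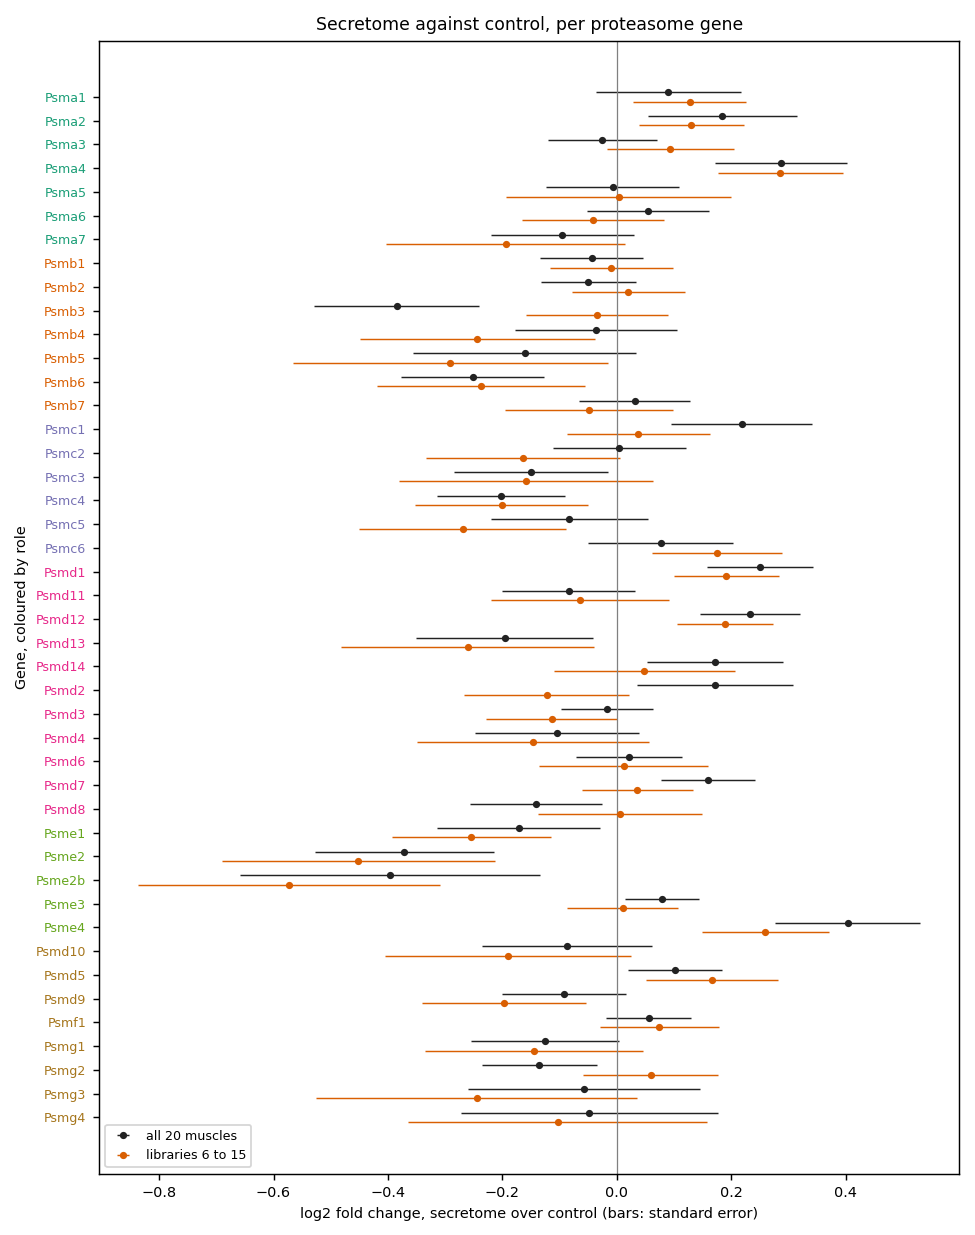
Log2 fold change of each proteasome gene, secretome over control, with its standard error, over all 20 muscles (black) and within libraries 6 to 15 (orange); gene names are coloured by role. Values over 20 muscles run from -0.40 (Psme2b) to 0.40 (Psme4), and no gene passed the 5% false discovery rate.

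One control muscle, replicate 9, carried more proteasome RNA than any other. A score per muscle, the mean over the 44 genes of log2 CPM minus the gene's mean over 20 muscles, was 0.47 in it. The next highest scores were 0.13 in control replicate 1 and 0.12 in secretome replicate 3, and the lowest was -0.17 in control replicate 8. The 44 genes took 0.456% of its counts and 0.252% to 0.355% in the other 19 libraries. It was the highest of 20 libraries for 23 of the 44 genes (52.3%), while it was highest for 10.1% of all genes tested.

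The excess in control replicate 9 covered the core and the 19S particle and left out some members. Psmb5 stood at 122 CPM against 35 to 102 in the other controls, and at 41.2 to 71.1 in secretome-treated muscles. Psmc3, an ATPase of the 19S ring, stood at 281 CPM against at most 176 in the other controls. Psmb4, a beta subunit without a proteolytic site, stood at 142 CPM against at most 85.8, and Psmd2, the scaffold of the 19S base, at 368 against at most 263. By role, this muscle was highest of 20 for 5 of 6 ATPases, 5 of 7 beta, 7 of 11 non-ATPase and 3 of 7 alpha subunits, 2 of 5 activators and 1 of 8 chaperones or inhibitors. Of the 44 genes 6 were below the mean of the other controls there, among them Psme4 (346 CPM), Psme3 (42.0 CPM) and Psmb2 (28.2 CPM). Outside the 44 genes, its log2 deviation was 1.30 for Sem1 and 0.90 for Adrm1, both 19S subunits with names of their own.

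No marker list was highest in control replicate 9. Counted from the highest of 20 libraries, its summed markers ranked 14th for muscle fibre, 3rd for macrophage, 9th for neutrophil, 19th for endothelial and 20th for satellite cell markers. Its depth of 17001254 reads lay inside the range of the others. With each library's trends on GC content and transcript length removed, its score was 0.48. The part of any of these in its score was not tested.

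Without control replicate 9, the direction of the members' median turned. This muscle was picked for its high values of these same genes and lay above the mean of the other controls for 38 of 44. Leaving it out therefore raises most of their log2 fold changes by construction. The shares of all genes beside the counts are no test of the members here. The median became 0.04, with 27 members higher and 17 lower, beside a median of -0.03 over all genes, of which 44.6% were higher. In that fit 0 of 44 passed the false discovery rate (0% of 14572 genes), the smallest adjusted p being 0.191, and 9 members had an unadjusted p under 0.05, beside 14.4% of all genes. Of the 9, 8 were higher (5.87% of all genes) and 1 lower (8.54%). Within libraries 6 to 15 without this muscle, the median was 0.08, with 30 higher and 14 lower, where 50.1% of all genes were higher. There 0 members passed (0% of 14785 genes) and 7 (15.9%) had an unadjusted p under 0.05, beside 8.54% of all genes. These 7 were higher, as were 4.43% of all genes at that level, while 4.11% were lower.

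**Figure D3:**
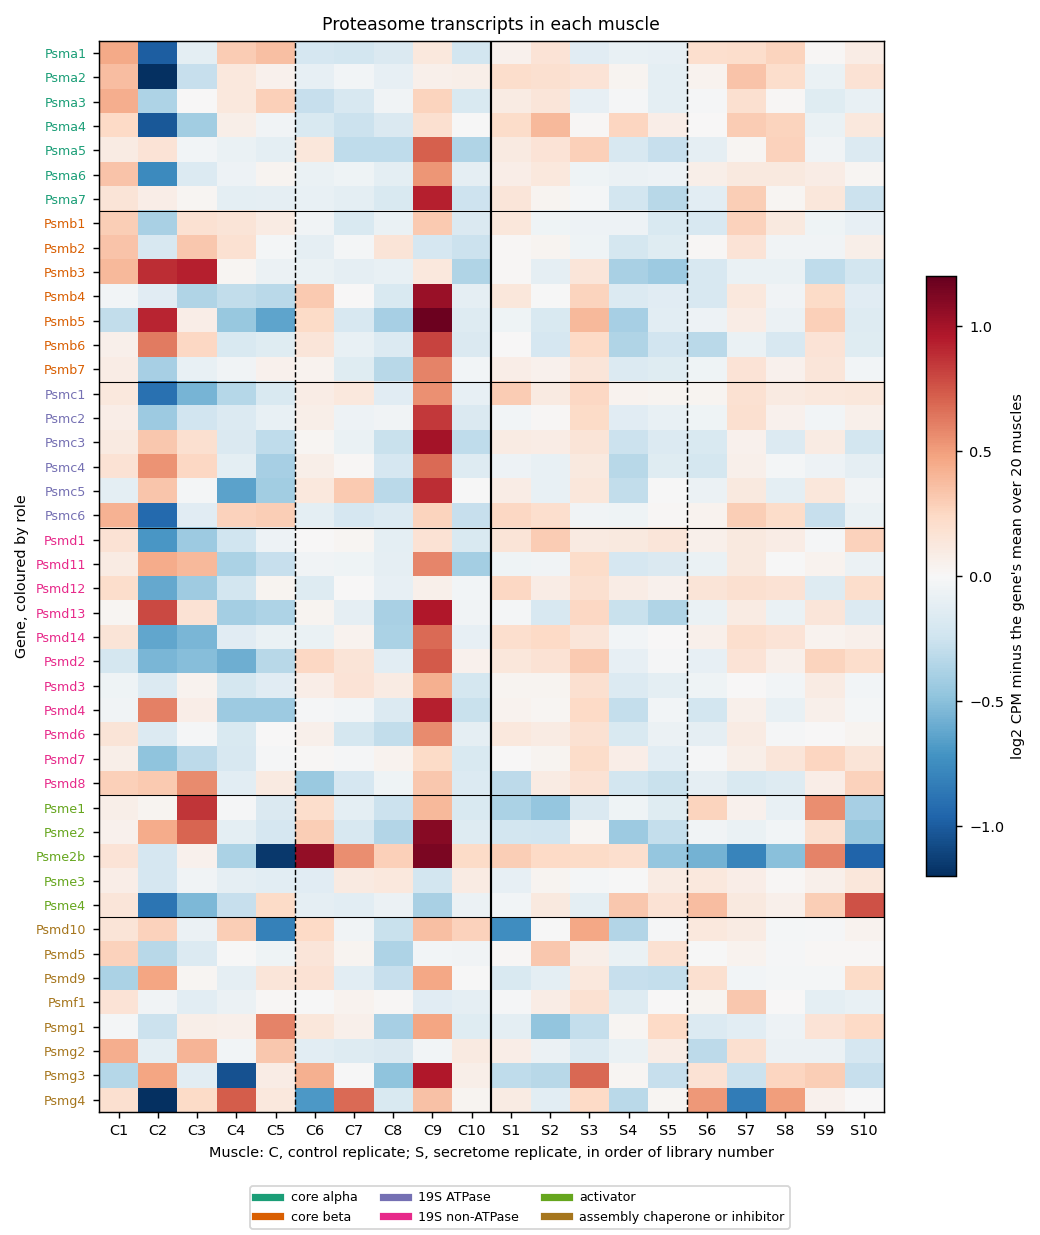
Log2 CPM (no added count) of each of 44 genes minus its mean over 20 muscles, in columns by library number (C, control; S, secretome) with rows grouped by role; dashed lines part libraries 1 to 5, 6 to 15 and 16 to 20, and the solid line the treatments. Column C9 is highest of 20 for 23 genes, while Psma1, Psma2, Psma4 and Psmc6 are lowest in C2.

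Over all 20 muscles, controls differed from each other more than secretome-treated muscles. The median SD of log2 CPM over the 44 genes was 0.34 among controls, 0.28 among controls without replicate 9, and 0.15 among secretome-treated muscles. Over all genes tested it was 0.37, 0.36 and 0.26, so a wider spread among controls was shared by genes outside the proteasome. The SD of the score over the 44 genes is another measure, not to be set against the SD per gene. Over all 20 muscles it was 0.19 among controls, 0.10 among controls without replicate 9, and 0.08 among secretome-treated muscles. Within libraries 6 to 15 it was 0.25, 0.09 and 0.10 in the same order. On the score, the wider spread was thus small over all 20 muscles once replicate 9 was left out, and absent within libraries 6 to 15. The SD per gene is not given within libraries 6 to 15. Outside them, range and treatment cannot be told apart. Control replicate 2, the shallowest library, was the lowest of 20 for 16 of the 44 genes (18.5% of all genes tested), with an alpha score of -0.60.

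**Figure D4:**
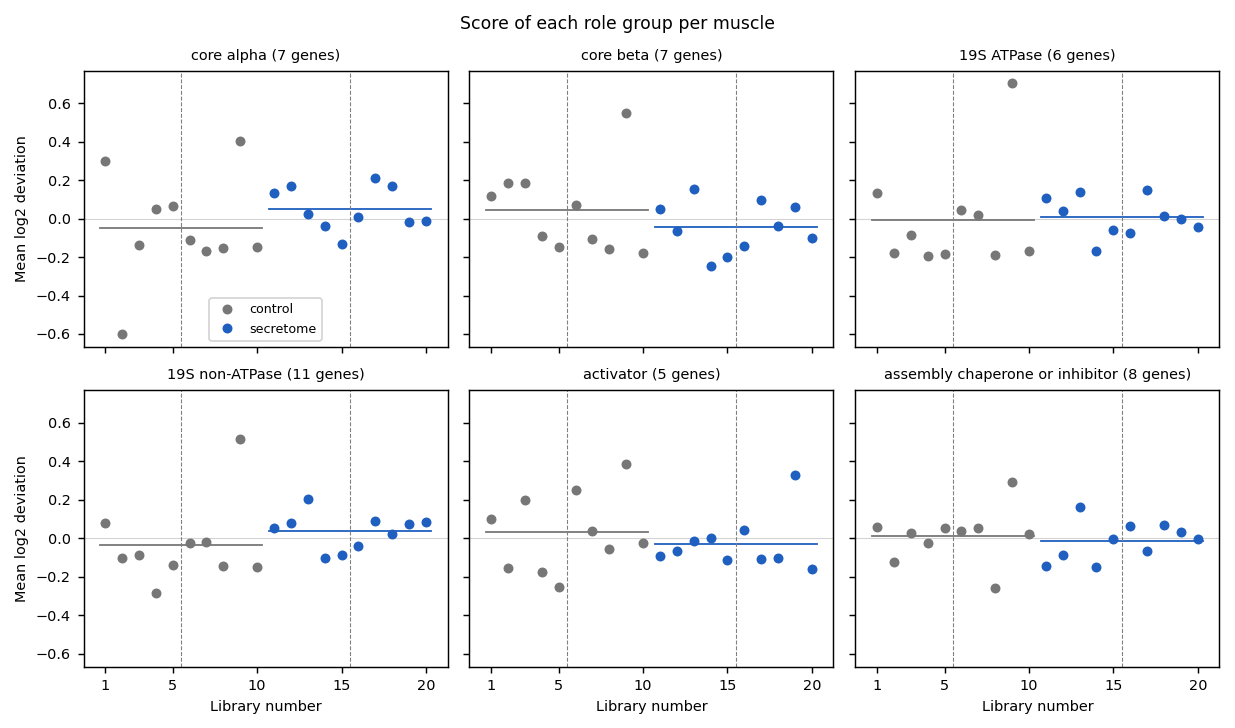
Score of each role group per muscle (mean over its genes of log2 CPM minus the gene's mean over 20 muscles) against library number; grey points are controls, blue points secretome-treated muscles, horizontal lines the group means and dashed lines the library ranges. Control replicate 9 is highest in each group, with 0.70 for the ATPases, and control replicate 2 is lowest for the alpha subunits with -0.60.

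Among the 7 alpha subunits, 4 were higher and 3 lower after secretome, with a median log2 fold change of 0.05. Psma4 had the smallest p. Its level was 22.8, 42.9 and 54.4 CPM (lowest, median and highest) in control muscles and 43.6, 52.1 and 60.5 CPM in secretome-treated muscles. The groups overlapped, and 10 of 10 secretome-treated muscles lay above the control median. The log2 fold change was 0.29 ± 0.115 (SE, p = 0.0197, adjusted p = 0.242), and 0.29 ± 0.109 within libraries 6 to 15 (adjusted p = 0.452). Psma2 (0.18 ± 0.13), Psma7 (-0.10 ± 0.125) and Psma6 (0.05 ± 0.107) were all within the spread between muscles.

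Of the 7 beta subunits 1 was higher and 6 were lower, with a median of -0.05. Psmb3, a beta subunit without a proteolytic site, was at 46.5, 58.8 and 114 CPM in control muscles and at 44, 53.8 and 65.9 CPM in secretome-treated muscles. Its log2 fold change was -0.38 ± 0.144 (p = 0.0135, adjusted p = 0.215). The highest values were those of control replicates 1, 2 and 3, with 78.2, 110 and 114 CPM, while control muscles of libraries 6 to 15 held 46.5 to 65.3 CPM and secretome-treated ones 44 to 65.9. There the log2 fold change was -0.03 ± 0.124 (adjusted p = 0.934).

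The 3 proteolytic subunits differed by less than the spread between muscles. Psmb5 was at 35, 48.1 and 122 CPM in control muscles and at 41.2, 51.7 and 71.1 CPM after secretome, with a log2 fold change of -0.16 ± 0.195 (adjusted p = 0.708) that became 0.02 ± 0.159 without control replicate 9. Psmb6 was at 70.8, 79.4 and 140 CPM in controls and at 62.6, 71.5 and 94.5 CPM after secretome, with a log2 fold change of -0.25 ± 0.125 (adjusted p = 0.330) that became -0.16 ± 0.108 without that muscle. Psmb7 was at 91.7, 118 and 182 CPM in controls and at 108, 125 and 135 CPM after secretome (0.03 ± 0.0978, adjusted p = 0.898). Each set of values overlapped, and in each the highest of 20 was control replicate 9. In libraries 6 to 15 alone, Psmb5 differed by -0.29 ± 0.275, Psmb6 by -0.24 ± 0.182 and Psmb7 by -0.05 ± 0.147.

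Of the 6 ATPases 3 were higher and 3 lower, with a median of -0.04. Psmc1 had 10 of 10 secretome-treated muscles above the control median, at 72.6 to 88.0 CPM after secretome and 38.1 to 104 CPM in controls (0.22 ± 0.123, adjusted p = 0.390). The difference was 0.45 ± 0.165 between libraries 16 to 20 and 1 to 5, where range and treatment cannot be told apart, and 0.04 ± 0.125 within libraries 6 to 15 (adjusted p = 0.927). Psmc4 had 8 of 10 below it (-0.20 ± 0.112, adjusted p = 0.383), with -0.20 ± 0.151 within libraries 6 to 15 and -0.12 ± 0.0992 without control replicate 9. Psmc3 (-0.15 ± 0.135) and Psmc2 (0.00 ± 0.117) did not differ beyond their spread.

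Of the 11 non-ATPase subunits 6 were higher and 5 lower, with a median of 0.02. Psmd1, a large scaffold of the 19S base, was at 84.9, 129 and 155 CPM in control muscles and at 136, 149 and 169 CPM after secretome. Of the secretome-treated muscles 10 of 10 lay above the control median, and the ranges overlapped. The log2 fold change was 0.25 ± 0.0931 (p = 0.0130, adjusted p = 0.213), and 0.19 ± 0.0915 within libraries 6 to 15 (adjusted p = 0.514).

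Psmd12, a subunit of the 19S lid, was at 36.4, 53.3 and 64.2 CPM in control muscles and at 50.0, 62.2 and 66.1 CPM after secretome, with 9 of 10 above the control median. Its log2 fold change was 0.23 ± 0.0877 (p = 0.0138, adjusted p = 0.219), and 0.19 ± 0.0841 within libraries 6 to 15 (adjusted p = 0.491). Psmd7, another lid subunit, differed by 0.16 ± 0.0818 (adjusted p = 0.345), Psmd14 by 0.17 ± 0.119 (adjusted p = 0.478), and Psmd8, also of the lid, by -0.14 ± 0.116 (adjusted p = 0.560). These were 0.04 ± 0.097, 0.05 ± 0.159 and 0.01 ± 0.143 within libraries 6 to 15.

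The highest log2 fold change of the 44 genes was that of the activator Psme4. Psme4 encodes PA200, which caps the core particle and is known for ubiquitin-independent degradation of histones. It was at 247, 417 and 532 CPM in control muscles and at 417, 500 and 771 CPM after secretome. In secretome-treated muscles 9 of 10 lay above the control median, although the ranges overlapped. The log2 fold change was 0.40 ± 0.127 (p = 0.00402, adjusted p = 0.166), the smallest p of the 44. Within libraries 6 to 15, controls held 346 to 431 CPM and secretome-treated muscles 417 to 566 CPM, a log2 fold change of 0.26 ± 0.111 (p = 0.0350, adjusted p = 0.479). The 346 CPM was that of control replicate 9, and the other controls there held 414 to 431 CPM. Without that muscle, the log2 fold change within libraries 6 to 15 was 0.21, and its unadjusted p was no longer under 0.05. Over all muscles it was 0.38 without control replicate 9. The largest value was in secretome replicate 10, without which the log2 fold change over all muscles was 0.33. In DESeq2 the adjusted p of Psme4 over all muscles was 0.0708.

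Psme2, the beta subunit of PA28, was at 10.4, 13 and 28.4 CPM in control muscles and at 9.72, 12 and 15.2 CPM after secretome. Its log2 fold change was -0.37 ± 0.156 (p = 0.0261, adjusted p = 0.262). The highest value was that of control replicate 9, and without it the log2 fold change was -0.23 ± 0.129 (adjusted p = 0.412). It was -0.45 ± 0.239 within libraries 6 to 15. Psme2b, its near-identical copy, differed by -0.40 ± 0.262 (adjusted p = 0.458) and by -0.27 ± 0.259 without control replicate 9, and Psme1, the PA28 alpha subunit, by -0.17 ± 0.142 (adjusted p = 0.564). Psme3 was the steadiest activator, at 42.0 to 53.3 CPM in controls and 45.4 to 53.4 CPM after secretome (0.08 ± 0.0644, adjusted p = 0.553).

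The 8 assembly chaperones and inhibitors held no member with an unadjusted p under 0.05, with 2 higher, 6 lower and a median of -0.07. Psmg1, Psmg2 and Psmg3, which help to build the alpha ring, differed by -0.13 ± 0.129, -0.14 ± 0.10 and -0.06 ± 0.203. Psmd5, a chaperone of the 19S base, differed by 0.10 ± 0.0821 (adjusted p = 0.549), and Psmf1, the inhibitor PI31, by 0.06 ± 0.0741 (adjusted p = 0.738).

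Whether the treatment effect differed between libraries 6 to 15 and the others was tested for each gene. No member passed (0 of 44, beside 0.0553% of 14471 genes), and 2 had an unadjusted p under 0.05 (4.55%, beside 11.1% of all genes). Of all genes 5.59% had a positive and 5.51% a negative difference at that level, and 51.7% a difference above 0, as had 12 of the 44 members. Control replicate 9, picked for its high values of these genes, is among the controls of libraries 6 to 15. It lay above the mean of the other controls for 38 of 44, which lowers most of these differences by construction. The 12 of 44 is therefore no result about the members, and the difference was not fitted without this muscle. The 2 members with an unadjusted p under 0.05 were Psmb3, described above (difference 0.62 ± 0.239, adjusted p = 0.319), and Psmd2. Psmd2 was at 147 to 191 CPM in control replicates 1 to 5, at 201 to 368 CPM in control replicates 6 to 10 and at 206 to 274 CPM in secretome-treated muscles. The 368 CPM was that of control replicate 9. Its log2 fold change was 0.56 ± 0.124 between libraries 16 to 20 and 1 to 5, and -0.12 ± 0.144 within libraries 6 to 15, a difference of -0.69 ± 0.194 (adjusted p = 0.176). Between libraries 16 to 20 and 1 to 5, 0 of 44 members passed (0% of 14667 genes) and 5 had an unadjusted p under 0.05, beside 16.1% of all genes. Of the 5, 4 were higher (6.53% of all genes) and 1 lower (9.56%). The 44 members split into 25 higher and 19 lower, where 44.2% of all genes were higher.

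Over all muscles, of the 3 immunoproteasome subunits, Psmb8 and Psmb9 were lower after secretome relative to the constitutive subunits they replace. Both differences were larger in the libraries where range and treatment cannot be told apart, as given below. The log2 ratio of Psmb8 to Psmb5 counts was -4.30, -3.92 and -2.49 (lowest, median and highest) in control muscles and -6.06, -4.56 and -3.95 in secretome-treated muscles. That is 7.89 Psmb8 reads per 100 Psmb5 reads in controls and 3.84 after secretome, as geometric means. The groups overlapped, and 10 of 10 secretome-treated muscles lay below the control median. The difference was -1.04 (two-sided permutation test with 100000 resamples, p = 0.00024, adjusted over the 3 ratios 0.00072). These subunits, like the other lists, were chosen with earlier results of these data known. The adjustment covers the 3 ratios only and not that choice. Leaving out any single muscle, the difference ranged from -1.12 to -0.89.

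The log2 ratio of Psmb9 to Psmb6 was -5.07 ± 0.599 in control muscles (SD, n = 10) and -5.86 ± 0.690 after secretome, with 9 of 10 below the control median (difference -0.79, permutation p = 0.0144, adjusted p = 0.0216). The ratio of Psmb10 to Psmb7 was -4.08 ± 0.816 and -4.52 ± 0.311, which did not differ beyond the spread (difference -0.43, permutation p = 0.148). Between the secretome-treated and control libraries outside 6 to 15, range and treatment cannot be told apart. The differences in that comparison were -1.46 for Psmb8 over Psmb5, -1.18 for Psmb9 over Psmb6 and -0.69 for Psmb10 over Psmb7. Within libraries 6 to 15, the differences were smaller and no ratio passed after adjustment. The differences there were -0.62 for Psmb8 over Psmb5 (exact permutation test, p = 0.0238, adjusted p = 0.0714), -0.40 for Psmb9 over Psmb6 (adjusted exact p = 0.262) and -0.18 for Psmb10 over Psmb7 (adjusted exact p = 0.492).

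**Figure D5:**
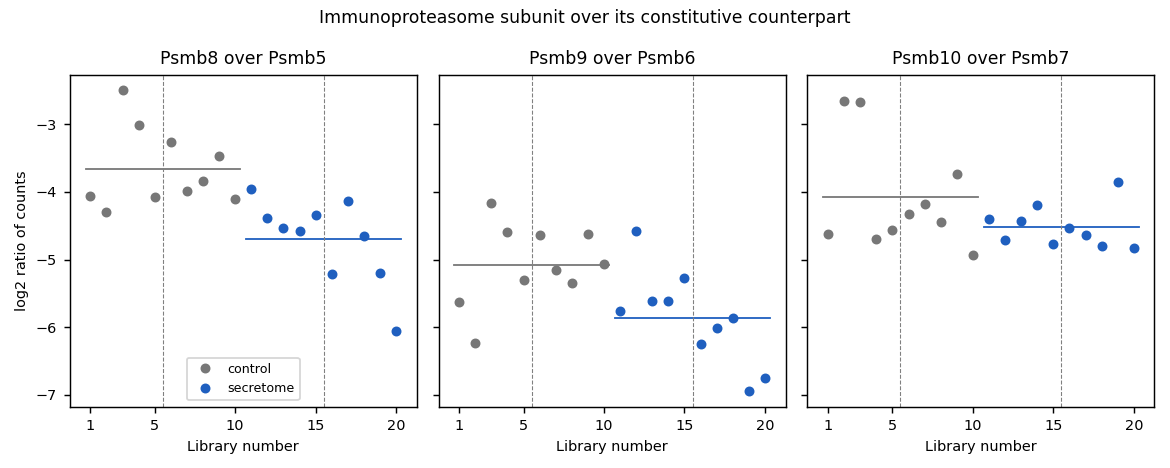
Log2 ratio of counts of each immunoproteasome subunit to its constitutive counterpart per muscle, against library number; grey points are controls, blue points secretome-treated muscles, horizontal lines the group means and dashed lines the library ranges. For Psmb8 over Psmb5 the means are -3.66 and -4.70, and for Psmb9 over Psmb6 -5.07 and -5.86.

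In CPM, the 3 immunoproteasome subunits were lower in the mean after secretome, none past the false discovery rate in edgeR. Psmb8 was at 2.04, 3.90 and 11 CPM in control muscles and at 0.703, 2.14 and 3.34 CPM after secretome. Its log2 fold change was -1.22 ± 0.314 (p = 0.000783, adjusted p = 0.124 in edgeR), and its adjusted p was 0.0173 in DESeq2, in which 1.25% of genes passed. Psmb9 was at 1.62, 2.09 and 5.66 CPM in controls and at 0.644, 1.21 and 2.90 CPM after secretome (-1.04 ± 0.293, adjusted p = 0.148 in edgeR and 0.0452 in DESeq2). Psmb10 was at 3.83, 5.62 and 17.8 CPM in controls and at 3.99, 5.19 and 9.23 CPM after secretome (-0.57 ± 0.271, adjusted p = 0.313). In libraries 6 to 15 alone, Psmb8 differed by -1.02 ± 0.385 (adjusted p = 0.452), Psmb9 by -0.69 ± 0.336 (adjusted p = 0.520) and Psmb10 by -0.33 ± 0.299. Control replicate 9, which lies in that range, held the highest Psmb8 and Psmb9 levels of 20. Leaving it out there, the 3 log2 fold changes ran from -0.56 to 0.08, with 2 lower and 1 higher. None of the 3 had an unadjusted p under 0.05, beside 8.54% of all genes. Over all muscles without it, the 3 were lower, from -1.02 to -0.45.

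Leukocyte markers were read beside these subunits. The 7 macrophage markers were all lower in the mean after secretome, 0 past the false discovery rate in edgeR and 1 in DESeq2 (adjusted p = 0.0455), and their summed level was 44.9 to 149 CPM in controls and 35.9 to 110 CPM after secretome. The 5 T and B cell markers summed to 0.331 to 7.06 CPM in controls and 0 to 0.860 CPM after secretome. None of these 5 reached the expression filter of edgeR, while DESeq2 had 4 of them lower past the false discovery rate (smallest adjusted p = 0.0096). Of the 4 neutrophil markers tested, 2 were higher and 2 lower in edgeR and 4 higher with voom. The part of these cells in the ratios was not tested.

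Genes that serve the proteasome without a Psm name were read from the same fit. Of 17 partners (receptors, ubiquitin shuttles, deubiquitinases and assembly factors), 0 passed in edgeR. At an unadjusted p under 0.05 there were 6 (35.3%), beside 15.7% of all genes. Of the 6, 5 were higher (6.52% of all genes) and 1 lower (9.21% of all genes). Ube3c, a ubiquitin ligase that acts on the proteasome, was at 58.5, 76.3 and 83.5 CPM in control muscles and at 80.7, 86.7 and 93.7 CPM after secretome, and 10 of 10 lay above the control median. Its log2 fold change was 0.23 ± 0.0681 (adjusted p = 0.158 in edgeR and 0.0313 in DESeq2), and 0.14 ± 0.0789 within libraries 6 to 15 (adjusted p = 0.564). Usp14, a deubiquitinase bound to the 19S particle, was at 42.3 to 49.3 CPM in controls and 49.5 to 57.8 CPM after secretome within libraries 6 to 15 (0.27 ± 0.0878, adjusted p = 0.445). Over 20 muscles its log2 fold change was 0.26 ± 0.0935 (adjusted p = 0.205). Sem1 differed by -0.40 ± 0.188 (adjusted p = 0.299) and by -0.22 ± 0.149 without control replicate 9, Adrm1, a ubiquitin receptor, by -0.14 ± 0.133 (adjusted p = 0.613), and Pomp, the chaperone of core assembly, by -0.05 ± 0.0982 (adjusted p = 0.845).

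Of 9 regulators 0 passed and 1 had an unadjusted p under 0.05 (11.1%, beside 15.7% of all genes). Nfe2l1, the factor known to induce the whole set of subunits when proteasomes are inhibited, was at 465, 625 and 966 CPM in control muscles and at 621, 676 and 711 CPM after secretome (0.06 ± 0.0988, adjusted p = 0.783), and its highest value was in control replicate 9. Nfyb and Nfyc, subunits of the factor that binds CCAAT, differed by 0.21 ± 0.0876 and 0.19 ± 0.0977 (adjusted p = 0.266 and 0.346). Of 5 ubiquitin genes and ubiquitin-activating enzymes 0 passed, and none had an unadjusted p under 0.05. The polyubiquitin gene Ubb differed by 0.10 ± 0.0964, Uba1, the main activating enzyme, by 0.09 ± 0.0855, and Rps27a, which encodes ubiquitin fused to a ribosomal protein, by -0.18 ± 0.119.

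The promoters of the members were searched for TGACNNNGC, the core of the antioxidant response element that Nfe2l1 binds, and for CCAAT, on both strands, from 250 bases before to 50 bases after the start (RefSeq, GRCm38.p6). Of 37 members with a promoter in the table, 6 held TGACNNNGC (16.2%), beside 14% of 27025 genes, and 12 held CCAAT (32.4%), beside 41.1%. The stretches around the match are shown for the proteolytic subunits Psmb5 and Psmb6, which had a large excess in control replicate 9, and for Psmd12 and Psme4, with little or no excess there, with the match in capitals and read along the gene's strand.
Psmb5: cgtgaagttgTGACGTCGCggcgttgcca
Psmb6: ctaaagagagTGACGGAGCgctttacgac
Psmd12: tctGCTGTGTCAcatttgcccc
Psme4: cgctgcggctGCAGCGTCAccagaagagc

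These stretches lie at chr14:54618024-54618052 (minus strand), chr11:70525338-70525366, chr11:107479278-107479299 and chr11:30771758-30771786 (plus strand). The match begins 47, 9, 247 and 7 bases before the start of Psmb5, Psmb6, Psmd12 and Psme4, and in the last pair it is the reverse complement of the motif. The median log2 deviation in control replicate 9 was 0.37 for the 6 members with TGACNNNGC and 0.55 for the 31 without it. Psmb7 and Psmc3 were among the members without a promoter to search. The part of Nfe2l1 or of the motif in the excess of this 1 muscle was not tested.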

How the data were processed

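Quadriceps of 20 mice, 10 per treatment, were grouped by the sample labels. The deposited values are whole-number counts per gene and mouse without normalization. The submitters' processing notes name cutadapt 1.16, STAR 2.7.9a, featureCounts 1.6.3, DESeq2 1.34.0 and the build GRCm39. Symbols and exon lengths came from GENCODE M21, which gave a symbol to 52135 of 55416 identifiers. The members and lists were chosen with earlier results of these data known.

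Genes were filtered with filterByExpr and tested with edgeR 4.0.16 (TMM, robust quasi-likelihood F-test, Benjamini-Hochberg over all genes tested), with treatment as the only term, also within libraries 6 to 15. Standard errors were obtained by dividing each log2 fold change by the square root of its F. CPM are scaled by TMM. Scores used log2 CPM with a prior count of 2, and ratios log2 counts plus 0.5. No source used here gives the order or day of processing, and p-values measure the spread between these muscles. Alternatives were DESeq2 1.42.0, RLE, no filter, a replicate block, sample quality weights in voom (limma 3.58.1), terms for library ranges, GC and length offsets, and each muscle left out. Named genes were Psmb5 to Psmb10, the 3 smallest p of each role group, members under an unadjusted p of 0.05, the highest and lowest per length, the 2 smallest p of each other list, and Nfe2l1, Pomp, Adrm1, Sem1 and Ubb. One further gene of the list is not reported here. Others were named after their values were seen. The code was tested on simulated data. Comparison of protein sequences was not run. Marker lists other than those in the report had these counts of genes higher and lower after secretome, none past 5%: neutrophil 2 and 2, endothelial 1 and 3, fibro-adipogenic 0 and 4, adipocyte 0 and 3, satellite cell 0 and 2, Schwann 0 and 3, blood 1 and 3, muscle fibre 7 and 0.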

Additional observations from a re-analysis of the deposited data

Results flagged for a closer look

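Among 92 sets of 10 muscles of 1 treatment, 15 held a muscle whose distance to its nearest neighbour exceeded Dixon's 95% critical share of the range, where chance gives about 4.6. Of these, 8 were control replicate 9, with the highest control score for all 44 members (0.473), for the beta subunits (0.551), the ATPases (0.704) and the non-ATPase subunits (0.515), and the highest control log2 CPM of Psmb7 (7.51), Psma7 (6.43), Psmc3 (8.13) and Psmc2 (7.22).

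Control replicate 2 was set apart at the low end, with a log2 CPM of 4.52 for Psma4, 4.04 for Psma2 and 4.77 for Usp14, next to 5.11, 5.09 and 5.35 in the second lowest control. Secretome replicate 9 was set apart by an activator score of 0.329, by a high log2 CPM of Psmb10 (3.22) and by a low one of Psmd12 (5.65). Secretome replicate 10 was set apart by a log2 CPM of 5.03 for Nfyc, next to 4.77.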

How the results depend on the processing

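No member passed the 5% false discovery rate in any alternative that was run. The smallest adjusted p of a member was 0.0708 in DESeq2, 0.0630 with voom for the difference between library ranges and 0.114 to 0.317 with each muscle left out. The count at an unadjusted p under 0.05 was 0 with a term for the 3 library ranges and 5 to 9 with each muscle left out (1 without control replicate 7 to 7 without control replicate 9 within libraries 6 to 15). For the difference between ranges it was 2 in edgeR, beside 11.1% of all genes, and 5 with voom. Without control replicate 9 the share of all genes was 14.4%, and 8.54% within libraries 6 to 15. For the other counts in this section no share of all genes is given. Those counts describe the fit and cannot be read as results about the members. With each muscle left out, the members' median ranged from -0.05 to 0.04 (-0.11 to 0.08 within libraries 6 to 15). The Psmb8 to Psmb5 and Psmb9 to Psmb6 differences lost their call within libraries 6 to 15 (-0.62 and -0.40), which hold fewer samples. Both were also smaller there than between the other libraries (-1.46 and -1.18), where range and treatment cannot be told apart. The Psmb9 to Psmb6 difference of -0.79 lost it under the replicate block (adjusted exact permutation p = 0.0908), while that of Psmb8 to Psmb5 kept it (0.0176). The replicate numbers did not pair the muscles, since 2 of 10 correlations of their deviations were over 0.1. With the replicate block, 0 members passed and 8 had an unadjusted p under 0.05, also with no share of all genes beside it. With each muscle left out, the 3 ratio differences ranged from -1.12 to -0.89, from -0.93 to -0.67 and from -0.53 to -0.28.

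Small log2 fold changes changed sign, none of them past the threshold. With voom they were 0.042 for Psmb5, 0.0063 for Psma7 and 0.0062 for Psmg3. With GC and length offsets they were 0.067 for Psmb5, -0.044 for Psmb7, 0.093 for Psma7, 0.021 for Psmb1, 0.025 for Psmc3, -0.085 for Psmc2, 0.0077 for Psmg1, 0.025 for Psmg3 and 0.0022 for Adrm1. With the term for 3 ranges they were -0.060 for Psmb7, -0.053 for Psma6, -0.18 for Psmc2, 0.048 for Psmg2, -0.12 for Uba1 and -0.089 for Nfe2l1. With muscles left out, the ranges that crossed 0 were -0.23 to 0.016 for Psmb5, -0.0060 to 0.12 for Psmb7, -0.13 to 0.042 for Psma7, -0.0091 to 0.13 for Psma6, -0.037 to 0.13 for Psmc2 and -0.15 to 0.081 for Psmg3. The cause was not tested.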
